A study of Saccharomyces cerevisiae with 2 samples.

Results

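The mitochondrial ribosome of the budding yeast Saccharomyces cerevisiae was examined through 68 protein-coding genes, those of 5734 listed whose symbol is MRPL, MRPS, MRP or RSM followed by a number, or is IMG1 or IMG2. Messenger RNA was compared between strain 2-10515, labelled wild type, and strain Y518, labelled mutant, which the series title describes as rich in glutathione (GSH). Each strain gave 1 library, from a seed culture of 18 h and a fermentation of 24 h, both at 30 °C and 180 rpm. What distinguishes the genotype of Y518, and how closely it is related to 2-10515, is not given in the sources used here. The libraries held 4.71 M uniquely mapped reads for 2-10515 and 4.32 M for Y518. Because neither strain was replicated, the strains could not be tested against each other, and every difference below is one between these 2 libraries.

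Mitochondrial ribosomes translate the few messenger RNAs encoded in the mitochondrial genome, most of which specify core subunits of the respiratory chain and ATP synthase. Nearly all of their proteins are encoded in the nucleus, made on cytosolic ribosomes and imported. A large (54S) subunit carries the peptidyl transferase centre and a small (37S) subunit carries the decoding centre. In S. cerevisiae the RNA-binding protein Puf3 binds many of these nuclear-encoded messages through a motif after the stop codon, and Hap1 and the Hap2/3/4/5 complex activate genes of respiration.

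The label was checked against the R64 reference annotation, to which all 68 records matched by accession and version. It assigned 39 members to the large subunit, 27 to the small subunit and 2 to neither by product name. The exceptions were MRP8, which the reference describes as originally taken for a mitochondrial ribosomal protein from its sequence, and RSM22, listed as a tRNA methyltransferase, whose note still describes it as a small-subunit protein. Of the MRP series, MRP7 (uniform name bL27m), MRP20 (uL23m) and MRP49 (mL61), belong to the large subunit. Classes by symbol alone therefore held 36 large-subunit and 32 small-subunit genes, and both groupings are given where they differ.

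The Puf3-type motif TGTANATA was searched on the coding strand of the 200 bases after each stop codon in R64. The choice of members by name did not use it. However, Puf3 is known to bind many of these messages, and motif and window were chosen after values were seen. The motif was present after all 66 genes of the 2 subunits and after neither MRP8 nor RSM22. Among all 5713 genes matched to the reference, 14.6% had it. On the opposite strand of the same windows it was found for 19.1% of the 68 members and 13.4% of all genes. The sites of the 3 genes with the lowest ratio in Y518, of 1 gene with equal levels and of the 3 subunit genes with the highest ratio are printed below, 5′ to 3′ on the coding strand, with the motif in capitals. They come from the S288C reference, and the sequences of 2-10515 and Y518 were not analysed here.
RSM23: cccatttctcaTGTACATAtaaatagataa
MRPL7: cccattcgtcaTGTAAATAtataaactgta
MRPL32: aaacttaagccTGTATATAgaaacttaatt
MRPL28: ctgtctcctgcTGTAAATAactgatgatca
MRPL19: ctgatctattcTGTAAATAtgtatataagt
RSM10: gatttcgtactTGTAAATAaaataggtgaa
RSM25: cctaaccaaccTGTATATAattaaaaacaa
The motif began 79 bases after the stop codon in RSM23, 82 in MRPL7, 46 in MRPL32, 32 in MRPL28, 87 in MRPL19, 59 in RSM10 and 39 in RSM25. MRPL28 had a further site that is not printed. In MRPL19 a further site, TGTATATA, directly follows the capitals and is printed in lower case. Over the 66 genes the first site began between 8 and 139 bases after the stop codon, with a median of 50.5. In 62 of them it began within 100 bases, while 631 of the 5713 matched genes had a site in that stretch. The extended form CNTGTANATA, with a C at the second base before the motif, was found after 53 of the 66 genes and after 4.39% of all genes.

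Transcripts of the mitochondrial ribosome were mostly lower in Y518. Of 68 members, all of which passed a minimum mean of 5 RPKM (reads per coding length and library total), 19 were lower in Y518 by 2-fold or more and 0 were higher by as much. Over all 5415 genes that passed, 8.88% were lower and 19.9% higher by this rule. At 1.5-fold, 32 members were lower and 3 higher (RSM25, MRP8 and RSM22), against 16.4% and 35.3% of all genes. The members' median log2 ratio of Y518 over 2-10515, computed on RPKM + 1, was -0.55, against 0.27 for all genes. A log2 ratio below 0 was found for 58 members and for 37% of all genes. Relative to the median of all genes, 30 members were at least 2-fold lower and 0 higher, where 13.6% of all genes were lower and 13.2% higher. In a bulk culture fewer cells that express a gene and less RNA per cell cannot be told apart.

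Summed over the 66 genes of the 2 subunits, reads were 24159 in 2-10515 and 13765 in Y518, or 0.513% and 0.319% of each library. That is 1.61-fold lower in Y518, with a 95% counting interval of 1.58 to 1.64. All intervals given here cover counting error alone, not the spread between cultures. With MRP8 and RSM22 included the sum was 1.42-fold lower (1.40 to 1.45). MRP8 supplied 2121 of the 26370 reads of all members in 2-10515 and 3081 of 16999 in Y518.

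The single genes spread more widely than counting error. The log2 ratios of the 66 subunit genes ran from -1.81 to 0.64, while the median half-width of their counting interval was 0.27. The counting interval of the fold lay wholly below 1 for 51 of them, where 26.3% of all genes did. It included 1 for 12 and lay above 1 for 3, the latter against 49.8% of all genes. These 3 depend on the scaling: relative to the median of all genes, MRPL19 and RSM10 had log2 ratios of 0.10 and 0.12, and RSM25 0.37. The plot of levels by gene shows this range.

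**Figure D1:**
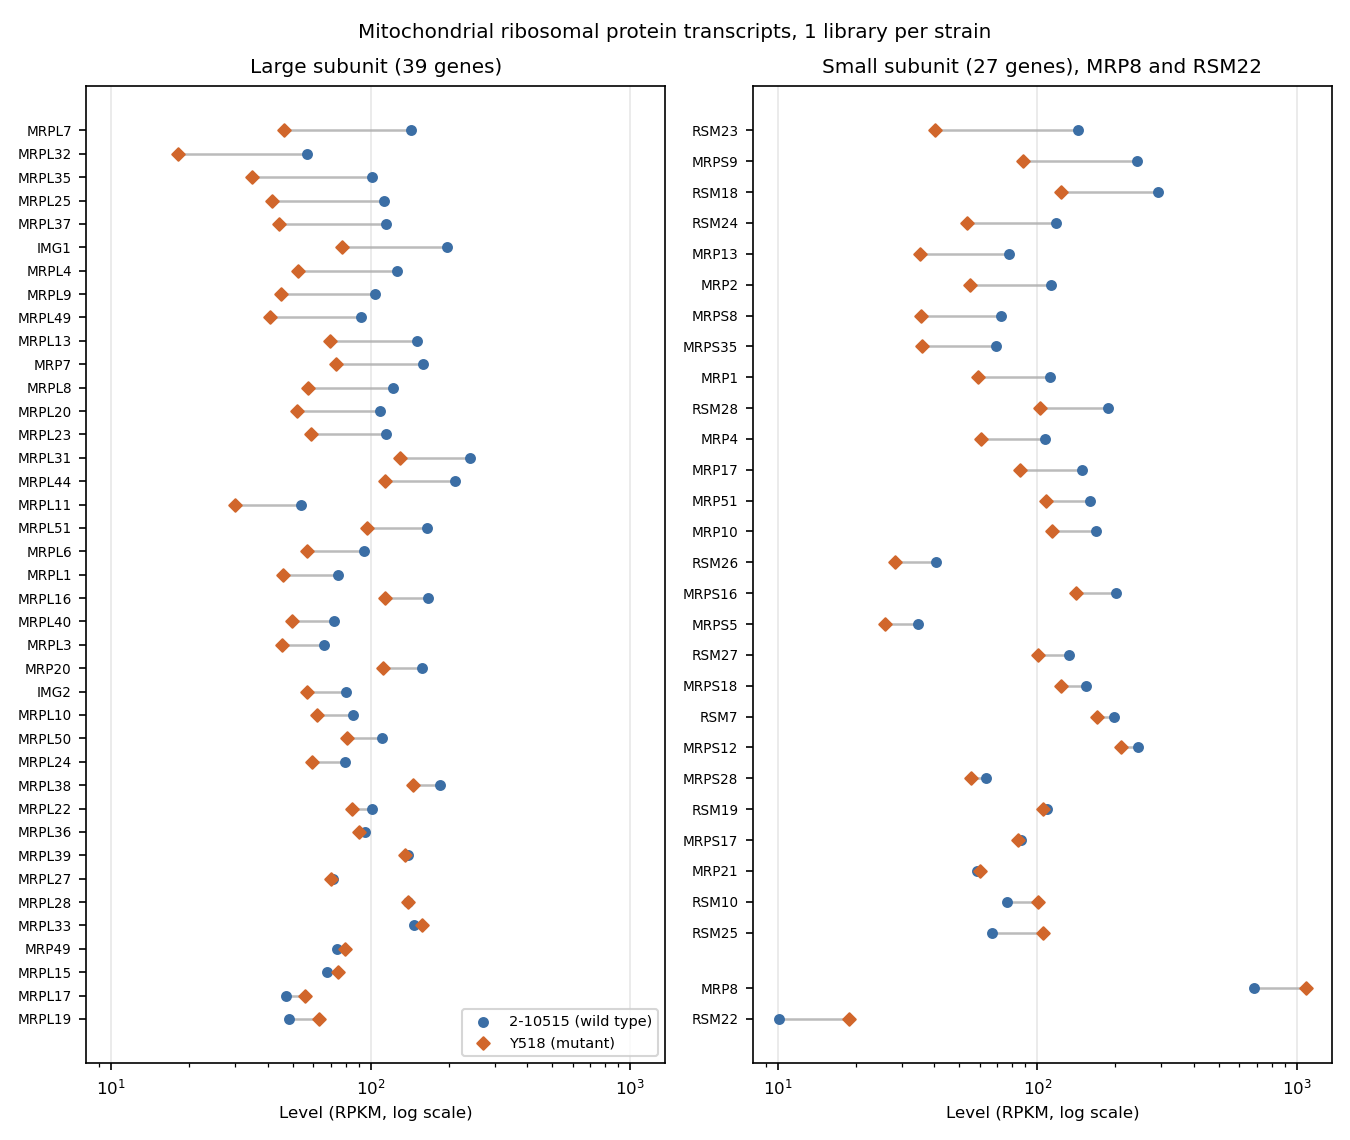
RPKM of each gene (log axis) in 2-10515 (blue circles) and Y518 (orange diamonds), 1 library per strain, ordered by ratio within the subunit given by the reference annotation; the grey line joins the values of a gene. Most Y518 values lie to the left of the wild-type values, with RSM25, RSM10, MRPL19, MRP8 and RSM22 among those to the right.

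Coverage of the coding sequence was nearly complete, so most values rest on reads along the whole gene. It was between 81.3% and 99.8% of the length in 2-10515 and between 85.5% and 99.8% in Y518, with medians of 98.6% and 98.5%. At least 90% was covered in both libraries in 66 members. The exceptions were RSM22, covered over 81.3% and 92.3%, and MRPL19, covered over 82.8% and 85.5%. MRPL19 shares bases with a listed reading frame on the same strand (YNL184C, 18 reads in 2-10515 and 22 in Y518), and MRP4 and MRPL51 overlap frames on the other strand. Whether reads were counted by strand is not given, so the values of these 3 members are uncertain. Apart from MRPL19 and MRPL51, no member had a near-identical stretch in another coding sequence of the reference. Overlapping frames were not removed from that search, so in these genes the stretch may be the overlap itself.

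Proteins of the large subunit were taken first. Of its 39 genes 13 were at least 2-fold lower in Y518 (33.3%, against 8.88% of all genes) and 0 higher. The median log2 ratio was -0.69. Reads summed to 12918 in 2-10515 and 7250 in Y518, 1.63-fold lower (1.59 to 1.68). The median level was 109 RPKM in 2-10515 and 61.9 RPKM in Y518.

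MRPL7 (uL5m), a relative of bacterial L5, which sits at the central protuberance that faces the small subunit, had 142.8 RPKM in 2-10515 and 46.1 RPKM in Y518. On 591 and 175 reads that is 3.10-fold lower (2.61 to 3.69). MRPL32 (bL32m), which in yeast is matured by the m-AAA protease before it assembles, had 148 reads (56.9 RPKM) and 43 reads (18.0 RPKM). It was 3.16-fold lower (2.23 to 4.54), and its Y518 level was the lowest of all members. MRPL35 (mL38), MRPL25 (mL59) and MRPL37 (mL54), which have no bacterial counterpart, were 2.91-fold (2.44 to 3.48), 2.70-fold (2.10 to 3.49) and 2.57-fold lower (1.91 to 3.50). IMG1 (bL19m), named for its need in keeping the mitochondrial genome intact, had 472 reads (197 RPKM) in 2-10515 and 170 reads (77.2 RPKM) in Y518, 2.55-fold lower (2.13 to 3.05). IMG2 (mL49), the other gene of that name, had 166 reads (79.9 RPKM) and 108 reads (56.7 RPKM), a difference of 1.41-fold (1.10 to 1.81) that stayed within 2-fold.

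Genes of 1 functional site of the large subunit did not share 1 ratio. At the peptidyl transferase centre, MRP7 (bL27m) had 832 and 355 reads and was 2.15-fold lower (1.90 to 2.44), and MRPL16 (uL16m), with 546 and 342 reads, 1.46-fold lower (1.28 to 1.68). Around the exit of the peptide tunnel, MRPL4 (uL29m) was 2.39-fold lower (2.04 to 2.81) on 568 and 218 reads. MRP20 (uL23m) was 1.41-fold lower there (1.24 to 1.61), on 585 and 381 reads. MRPL22 (uL22m) differed least of these 3, at 1.19-fold (1.03 to 1.37) on 442 and 341 reads. The intervals of MRPL4 and MRPL22 do not meet, but both genes were picked with these values known.

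Genes of the stalk that recruits translation factors, grouped with the values known, also differed in ratio. MRPL11 (uL10m), its base, had 190 reads (53.8 RPKM) in 2-10515 and 97 reads (30.0 RPKM) in Y518, 1.80-fold lower (1.40 to 2.32). MRPL19 (uL11m), which binds beside it, had 109 reads (48.5 RPKM) and 130 reads (63.1 RPKM). Its fold of 1.30 in favour of Y518 has an interval of 1.001 to 1.694 and is uncertain because of the overlap. MNP1 (bL12m), the stalk protein that carries the factor contact, falls outside the symbol rule and had 558 and 145 reads, 3.53-fold lower (2.93 to 4.27).

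Several large-subunit genes had nearly equal levels. MRPL28 (mL40) had 139.7 RPKM in 2-10515 and 139.3 RPKM in Y518, and MRPL39 (bL33m) 138.6 and 135.9 RPKM. MRP49 (mL61) had 145 and 142 reads, 1.07-fold higher in Y518 (0.84 to 1.36). MRPL15 (mL57) and MRPL17 (mL46) were 1.10-fold (0.92 to 1.32) and 1.18-fold higher (0.97 to 1.45), with intervals that include 1. MRPL31 (mL60), with 241.9 and 129.3 RPKM, was the large-subunit gene of highest mean level and 1.87-fold lower (1.59 to 2.21).

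In the small subunit 6 of 27 genes were at least 2-fold lower in Y518 (22.2%, against 8.88% of all genes) and 0 higher. The median log2 ratio was -0.56. Summed reads were 11241 in 2-10515 and 6515 in Y518, 1.58-fold lower (1.53 to 1.63). The median level was 113 RPKM in 2-10515 and 86.0 RPKM in Y518.

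RSM23 (mS29), a GTP-binding protein related to mammalian DAP3, had the lowest ratio of all members. It had 914 reads (143 RPKM) in 2-10515 and 235 reads (40.2 RPKM) in Y518, 3.57-fold lower (3.09 to 4.13). MRPS9 (uS9m), of the subunit head, had 952 reads (242 RPKM) and 318 reads (88.0 RPKM), 2.74-fold lower (2.41 to 3.13). RSM18 (bS18m) had the highest wild-type level of all subunit genes, 292 RPKM, and 124 RPKM in Y518, 2.36-fold lower (2.02 to 2.77). Its partner in the ribosome, MRP17 (bS6m), had 276 and 147 reads and was 1.72-fold lower (1.40 to 2.12). MRPS8 (uS8m), with 159 and 72 reads, was 2.02-fold lower by reads (1.52 to 2.71). Its log2 ratio on RPKM + 1 was -0.998, just short of the 2-fold call, which MRP2 (uS14m), at -1.02, just met.

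Genes named from the head and decoding site, some of them also chosen after their values were seen, ranged widely. Of the head, RSM24 (mS35) was 2.21-fold lower (1.88 to 2.59) on 534 and 222 reads, and MRP2 2.04-fold lower (1.57 to 2.68) on 185 and 83 reads. MRPS12 (uS12m), which lines the decoding centre, had 530 reads (244 RPKM) and 420 reads (211 RPKM), 1.16-fold lower (1.02 to 1.32). Its Y518 level was the highest of all subunit genes. RSM7 (uS7m) had 694 and 546 reads, 1.17-fold lower (1.04 to 1.31), and RSM19 (uS19m) 142 and 125 reads, 1.04-fold lower (0.81 to 1.33). RSM10 (uS10m), also of the head, had 220 reads (76.3 RPKM) in 2-10515 and 266 reads (101 RPKM) in Y518, 1.32-fold higher (1.10 to 1.58). MRPS5 (uS5m) and RSM26 (mS42) had the lowest mean levels of the subunit, 34.7 and 40.6 RPKM in 2-10515 and 25.8 and 28.3 RPKM in Y518.

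RSM25 (mS23) was the subunit gene of highest ratio, with 251 reads (67.1 RPKM) in 2-10515 and 361 reads (105.2 RPKM) in Y518, 1.57-fold higher (1.33 to 1.85). It is also the only member on chromosome IX, whose 196 tested genes had a median log2 ratio of 1.01, the highest of the nuclear chromosomes. On the other chromosomes with members the medians lay between -0.11 and 0.37. The part of the chromosome in the value of RSM25 was not tested.

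The 2 members without a ribosomal product name stood at the ends of the range of mean levels, although in Y518 alone MRPL32 was below RSM22. MRP8 had 2121 reads (683 RPKM) in 2-10515 and 3081 reads (1081 RPKM) in Y518, the highest of all members in both, and was 1.58-fold higher in Y518 (1.499 to 1.675). RSM22 had 90 reads (10.1 RPKM) and 153 reads (18.8 RPKM), 1.85-fold higher (1.42 to 2.43). Both lay above every subunit gene in log2 ratio, at 0.66 and 0.83.

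The large and small subunits were compared next. Their median log2 ratios were 0.13 apart by annotated subunit, with the large subunit lower, and 0.20 apart by symbol. By symbol, 12 of 36 large-subunit and 7 of 32 small-subunit genes (33.3% and 21.9%) were at least 2-fold lower, against 8.88% of all genes. The medians by symbol were -0.71 and -0.50. The symbol class of the small subunit holds MRP8, and its summed reads were only 1.30-fold lower (1.26 to 1.33), against 1.58-fold by annotation. No test of the difference was possible, since genes of 1 library pair are not replicates.

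By descent of the protein, 27 subunit genes belong to families shared by all ribosomes, 14 to families shared with bacteria and 25 to mitochondrial ribosomes alone, per the uniform names (prefixes u, b and m). Their median log2 ratios were -0.49, -0.67 and -0.87. At least 2-fold lower were 5, 6 and 8 genes, or 18.5%, 42.9% and 32% of their classes, against 8.88% of all genes. In the small subunit the 12 universal families had a median of -0.27, the 5 bacterial ones -0.57 and the 10 mitochondrial ones -0.88. In the large subunit the bacterial families were lowest at -1.08, with the universal ones at -0.55 and the mitochondrial ones at -0.76, so the order differed between the subunits. Each class spanned more than 1 log2 unit, as the plot of folds by family shows.

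**Figure D2:**
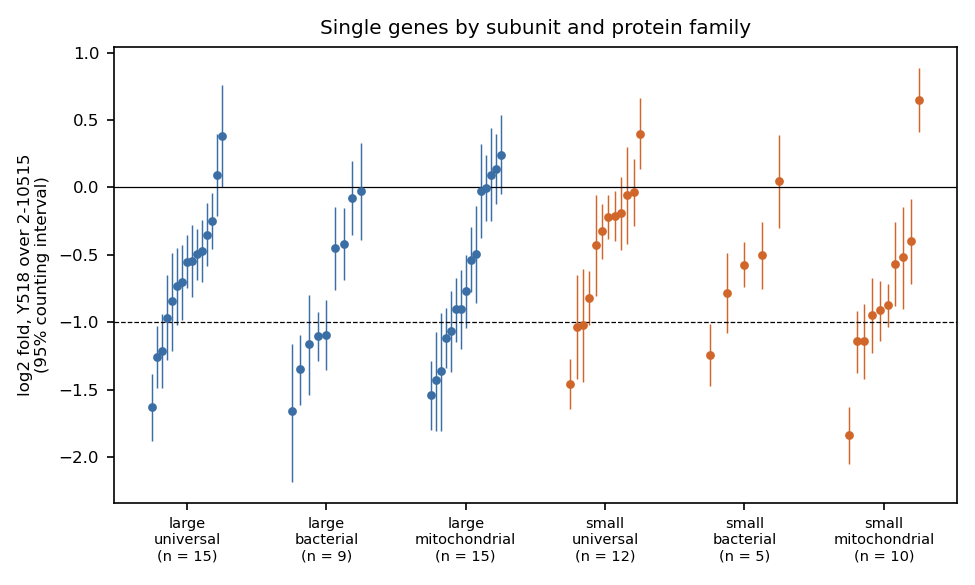
log2 fold of reads per library total (Y518 over 2-10515) of the 66 subunit genes with 95% counting intervals, grouped by subunit and protein family and ordered within each group; the dashed line marks 2-fold lower. Every group spans more than 1 log2 unit, and the groups overlap.

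The order of levels was partly kept between the libraries. Across the 66 subunit genes, log2 RPKM in 2-10515 and in Y518 correlated with Pearson's r = 0.69 and Spearman's rho = 0.65, a description over genes that share both libraries. The SD of log2 RPKM was 0.68 in 2-10515 and 0.73 in Y518, against 1.96 and 1.85 over all genes tested. The gene at the 90th percentile of RPKM exceeded that at the 10th by 3.23-fold in 2-10515 and 3.71-fold in Y518. Across the same genes, the log2 ratio correlated with log2 coding length at r = -0.23 and with log2 mean RPKM at r = 0.01.

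Of the motif classes, the form CNTGTANATA was chosen after values were seen, so its split of the members is not independent of those values. The 53 members with CNTGTANATA had a median log2 ratio of -0.76 and held 18 of the 19 genes that were at least 2-fold lower. The 13 subunit genes without the C had a median of -0.21 and held 1, RSM18. By number of TGTANATA sites, the 53 members with 1 site (not the same 53 genes) had a median of -0.76, with 17 lower. The 13 with 2 or more sites had -0.41, with 2 lower. By the base at N, members with TGTACATA, TGTAAATA and TGTATATA had medians of -0.81, -0.64 and -0.50. None of these splits was tested. Outside the 68 members, the 751 tested genes with TGTANATA had a median of 0.02, with 100 lower and 97 higher, where 8.88% of all genes were lower and 19.9% higher. The 195 of them with CNTGTANATA, a form chosen after values were seen, had a median of -0.39, with 41 lower and 11 higher. These 195 include other genes of mitochondrial translation. Without all the mitochondrial translation lists, 160 such genes had a median of -0.29, 29 of them lower and 10 higher. These values describe letters in the reference beside levels in the 2 libraries, and binding by Puf3 was not measured. The PUF3 transcript itself had 1576 reads (127 RPKM) in 2-10515 and 657 reads (57.6 RPKM) in Y518, 2.20-fold lower (2.01 to 2.41).

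**Figure D3:**
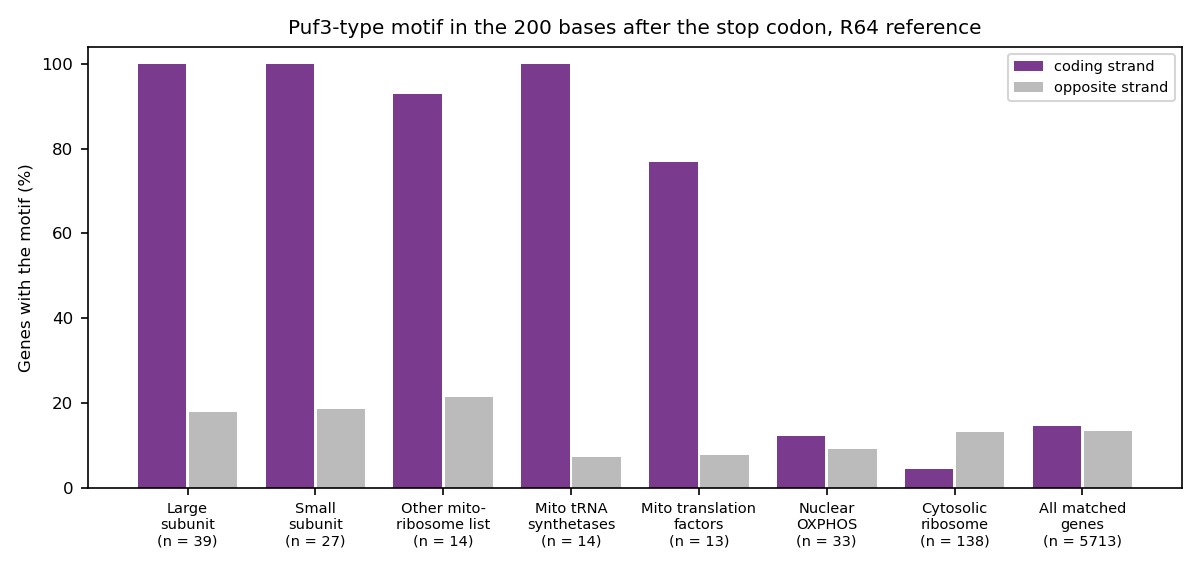
Percent of genes with TGTANATA in the 200 bases after the stop codon in R64, on the coding strand (purple) and the opposite strand (grey), by gene group. The bars reach 100% on the coding strand for the large subunit, the small subunit and the mitochondrial tRNA synthetases, against 14.6% of all matched genes and 4.35% of cytosolic ribosomal protein genes.

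The CCAAT box bound by the Hap complex was less frequent among the members than among respiratory genes. Searched as CCAAT on both strands of the 300 bases before the start codon, it was present for 24 of 68 members (35.3%), 42.2% of all matched genes and 30 of 33 nuclear genes of oxidative phosphorylation. Conversely, TGTANATA was found after 4 of those 33 genes, or 12.1%. Members with CCAAT had a median log2 ratio of -0.51 and those without -0.63.

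The remaining machinery of mitochondrial translation had medians near that of the members. The list of other mitochondrial ribosome genes, whose symbols fall outside the rule, held 14 measured genes. Of these 3 were at least 2-fold lower (21.4%) and 2 higher (14.3%), where 8.88% of all genes were lower and 19.9% higher. The median log2 ratio was -0.46. Beside MNP1, RML2 (uL2m) was 2.46-fold lower (2.14 to 2.82) and MHR1 (mL67) 2.16-fold lower (1.74 to 2.69). NAM9 (uS4m), RTC6 (bL36m), YDR115W (bL34m) and FYV4 (mS41) had log2 ratios of -0.96, -0.76, -0.59 and -0.55. QRI5 (mS38), SWS2 (uS13m), PET123 (mS26), YNL122C (bL35m) and YML6 (uL4m) had -0.37, -0.35, -0.21, -0.14 and -0.08. The higher genes were EHD3 (mS47), related to enzymes of valine breakdown, with 357 and 1071 reads (3.27-fold, 2.90 to 3.70), and PPE1, with 94 and 188 reads (2.18-fold, 1.69 to 2.82). The reference lists PPE1 as a phosphatase methylesterase, not a ribosomal protein.

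All 14 mitochondrial tRNA synthetases, which charge the transfer RNAs used by this ribosome, had log2 ratios below 0. At least 2-fold lower were 5 (35.7%, against 8.88% of all genes), and the median was -0.60. MSF1, for phenylalanine, had 282 and 65 reads and was 3.98-fold lower (3.03 to 5.29), MSM1, for methionine, 3.27-fold (2.60 to 4.13) and MST1, for threonine, 2.96-fold (2.13 to 4.16). Of 13 translation factors and related genes 4 were lower (30.8%) and 1 higher (7.69%), against 8.88% and 19.9% of all genes. Their median was -0.56. RMD9, which stabilises mitochondrial messages, and HER2, a subunit of the enzyme that makes glutaminyl-tRNA, were 3.58-fold (2.95 to 4.36) and 3.67-fold lower (2.61 to 5.25). FMT1, which formylates the initiator methionyl-tRNA, was 3.72-fold lower (2.17 to 6.75) on 69 and 17 reads. IFM1, the initiation factor that recruits that tRNA, was 2.84-fold higher (2.37 to 3.41) on 168 and 437 reads.

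Among 12 genes of ribosome assembly, rRNA modification and membrane attachment 3 were lower (25%) and 0 higher, against 8.88% and 19.9% of all genes. Their median was -0.53. MBA1, the ribosome receptor of the inner membrane, was 3.70-fold lower (2.96 to 4.65) on 399 and 99 reads. The helicase gene MRH4 was 2.66-fold lower (1.98 to 3.61). AFG3 and YTA12, the 2 subunits of the m-AAA protease that matures MRPL32, were 2.15-fold (2.01 to 2.30) and 1.43-fold lower (1.32 to 1.56).

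The members lay between their cytosolic counterparts and the respiratory subunits. Among 138 genes with symbols of cytosolic ribosomal proteins (RPL, RPS and RPP), 118 (85.5%) were higher by 2-fold or more and 0 lower. Over all genes 19.9% were higher and 8.88% lower. The median log2 ratio of the 138 genes was 1.53. The symbols include RPP1, which the reference lists as an RNA processing protein and which is 1 of the 118, with 35 and 93 reads. The 138 genes took 1.39% of the uniquely mapped reads in 2-10515 and 3.72% in Y518. Of these genes 38 have a near-identical copy, and the lowest coverage in 2-10515 was 0%, so both shares may be understated. Without genes that have such a copy the median was 1.54. Of 33 nuclear genes of oxidative phosphorylation 29 (87.9%) were at least 2-fold lower and 0 higher, with a median of -1.70. SDH3, SDH1 and COX6, of succinate dehydrogenase and cytochrome oxidase, had the largest differences there, at -2.56, -2.27 and -2.22. The 33 genes took 5.53% of the reads of the 2-10515 library and 1.70% of the Y518 library. Of the regulators, HAP3 had 193 and 65 reads and was 2.72-fold lower (2.05 to 3.66), while HAP1 was 2.16-fold higher (2.00 to 2.32). HAP2 was 1.95-fold lower (1.70 to 2.24) and HAP4 1.75-fold lower (1.67 to 1.83). HAP5 was 1.22-fold lower, with an interval that includes 1 (0.97 to 1.54).

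**Figure D4:**
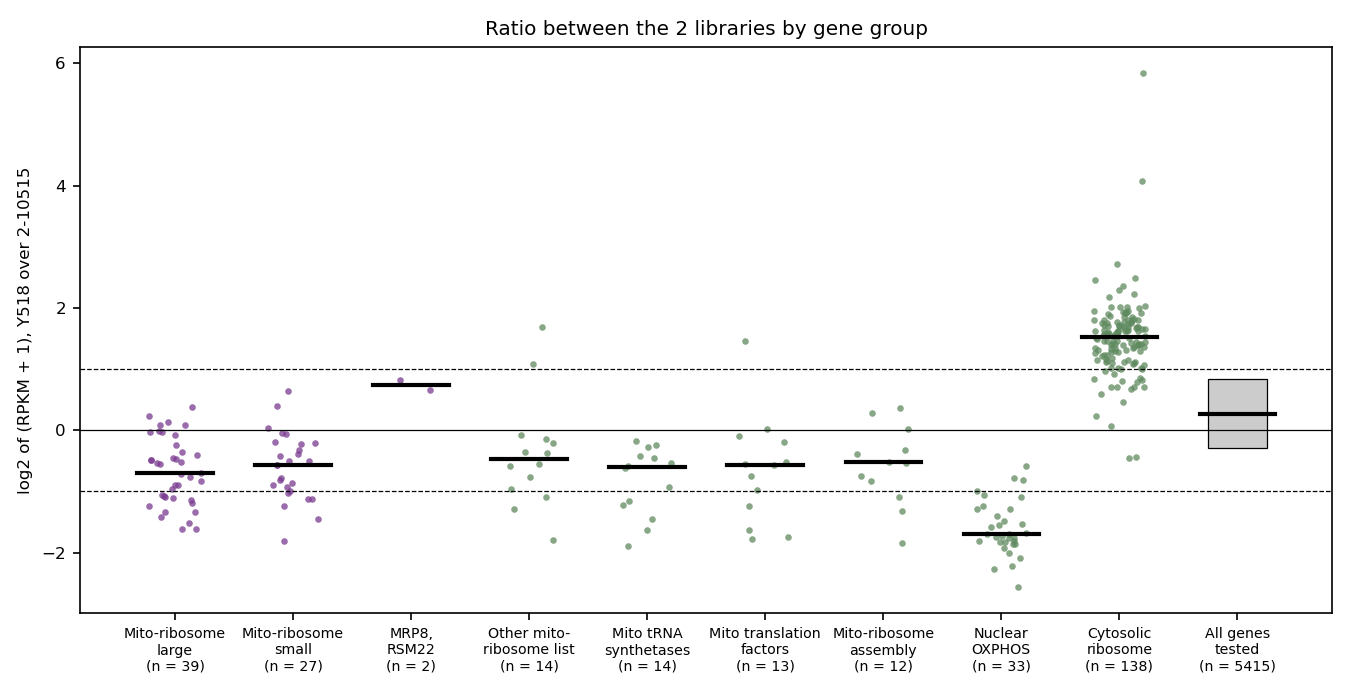
log2 of (RPKM + 1) in Y518 over 2-10515 for each gene (points) with the group median (black bar), and the median and interquartile range of all 5415 tested genes (grey box); dashed lines mark 2-fold. The 2 subunits, at medians of -0.69 and -0.56, lie below all genes (0.27) and above nuclear genes of oxidative phosphorylation (-1.70), with cytosolic ribosomal proteins on the other side at 1.53.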

How the data were processed

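The authors deposited, per the file headers, the count of uniquely mapped reads per coding sequence, the percent of its length covered, and RPKM for 1 library per strain. Aligner, counter and build: not given in the sources used here. RPKM equalled the count divided by length and library total (0 mismatches beyond a relative difference of 1e-06), and the series tables matched those of the single libraries (0 mismatches). Listed lengths are multiples of 3 and so are coding lengths. Columns of other samples numbered 0.

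Symbols defined the members. Members and lists were chosen with earlier results of these data known. VAR1 and TSF1 were not matched and PET56 is MRM1. Genes whose 2 values averaged 5 RPKM or more were compared by log2 of (RPKM + 1), which understates changes of low genes, and called at 2-fold. Each single-gene fold divides reads by their library totals and carries an exact conditional binomial 95% interval (Clopper-Pearson). PCR duplicates are not independent molecules. The calculations were tested on simulated data. Named members were the 8 lowest and 8 highest ratios, the 5 highest and 5 lowest levels, up to 4 of lowest coverage, and symbols at odds with their subunit. Members named for their place in the ribosome, and YTA12, HAP2, HAP4 and HAP5, were chosen after their values were seen. The same holds for the motifs and windows. Subunits, families, motifs and neighbouring genes come from RefSeq R64; since the deposited files name no build, no coordinates are printed. Copies were sought with BLAST+ 2.17.0 (at least 95% identity over 100 bases). Python 3.11.15 and edgeR 4.0.16 (TMM factors) were used.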

Additional observations from a re-analysis of the deposited data

How the results depend on the processing

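Centring shifted every ratio by the median of all genes, 0.27, and TMM left that median at 0.01. Members at least 2-fold lower numbered 30 under both, against 19 as deposited, and 0 were higher. After centring the medians were -0.83 for all members, -0.98 for the large and -0.77 for the small subunit by symbol, and the log2 ratio of summed reads was -0.78 (-0.77 with TMM; -0.51 as deposited). The list medians were then -0.73 for other mitochondrial ribosome genes, -0.87 for tRNA synthetases, -0.84 for translation factors, -0.80 for assembly, -1.97 for oxidative phosphorylation, -1.15 for regulators and 1.26 for cytosolic ribosomal proteins. Under centring and under TMM, lower genes numbered 5 among other mitochondrial ribosome genes, with 1 higher, 5 in assembly and 4 among regulators, with 0 higher. A pseudocount of 5 RPKM, or at least 80% coverage, left 1 higher gene among other mitochondrial ribosome genes. A minimum of 20 RPKM left 3 lower tRNA synthetases and 2 lower translation factors, and 80% coverage 2 of the latter, since fewer genes were tested. A 1.5-fold call gave 32 lower and 3 higher members (all genes: 16.4% and 35.3%), and 6, 8, 5 and 4 lower genes among other mitochondrial ribosome genes, tRNA synthetases, assembly and regulators. The difference between subunit medians by symbol, -0.20, lay between -0.21 and -0.18 under the settings run for it. Centring cannot move it, and the grouping by annotation (-0.13) was computed under the main settings only. Of the 27 members named by ratio, level, coverage or symbol, 15 moved beyond their counting interval with centring and 13 with TMM. Under the other settings 0 did. Centring shifts all genes alike, so those that moved are the ones with narrower intervals. The other members named in the text were not run singly. No paired analysis was possible because each strain has 1 library. Depth limits genes such as MRPL32, with 43 reads in Y518.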
